A study of Homo sapiens with 6 samples.

Results

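The genes described here belong to the pathway of the coactivators YAP and TAZ and of the TEAD transcription factors. They were chosen by name, with earlier results of these data known, as 10 listed genes with at least 10 counts in some library. Shares over all intervals are therefore given beside their counts as a description only. The gene table held 9 of them (CCN1, CCN2, AMOTL2, YAP1, WWTR1, TEAD1, LATS1, LATS2 and AJUBA) among 20333 gene intervals. All 9 passed the filter on low counts that left 19902 intervals for testing. ANKRD1 has no row in the table used here and was not analysed.

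In this pathway a kinase cascade ends in LATS1 and LATS2, which phosphorylate YAP (gene YAP1) and TAZ (gene WWTR1) and hold them in the cytoplasm. When they are not phosphorylated, YAP and TAZ enter the nucleus, bind TEAD factors on DNA and raise a set of target genes that includes CCN1, CCN2, ANKRD1 and AMOTL2. AMOTL2 and LATS2 are both targets and inhibitors of YAP, and AJUBA is a LIM-domain protein that restrains LATS kinases. In breast tissue this pathway is best known from basal and mesenchymal cells and from the response of cells to contact and stiffness.

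PRO-seq (precision nuclear run-on sequencing) was used to measure transcription. It counts RNA made by polymerases that are engaged on a gene, and so reads neither mature RNA nor the location or phosphorylation of YAP. T47D cells, a long-established breast cancer line of luminal type, were used. They are positive for the estrogen receptor and negative for HER2, and were kept in medium with growth factors. The arms were DMSO (the solvent), 500 nM GDC0068 (an inhibitor of AKT kinase activity) and 100 nM INY-05-040 (a compound that leads to degradation of AKT, called Degrader here), each for 5 h. The doses had been set for comparable suppression of signalling below AKT, and each arm had 2 libraries from 2 independent experiments. All results come from this 1 line.

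Total counts ranged from 25371819 to 32192576 per library, and the replicates of an arm differed by more than sampling noise (chi-square per degree of freedom 4.93 to 6.84). The luminal character of the line was borne out by its markers: all 8 luminal genes were transcribed, with a summed level of 4662 to 5027 CPM (counts scaled to library size) over the 6 libraries. Of 7 basal and mesenchymal markers, ZEB1 and SNAI2 have a row, and their summed level was 5.60 to 6.29 CPM. Of 7 fibroblast, endothelial and leukocyte markers, the macrophage and lysosome gene CD68 has a row. CD68 stood at 77.2 to 83.6 CPM in DMSO, 62.6 to 67.6 under GDC0068 and 55.1 to 64.4 under Degrader, and was called lower under both drugs. The part of this shift in the results below was not tested.

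Levels differed widely among the 9 genes. Per kilobase of gene interval in DMSO (SD, n = 2 here and throughout), AMOTL2 was at 26.8 ± 0.56 CPM per kb and CCN1 at 22.1 ± 0.095. RPL39P5 and MIR6827 overlap AMOTL2 on the same strand, MIR6827 within it. RPL39P5 (134351852 to 134356480) lies mostly outside AMOTL2, whose interval begins at 134355874. Taking off all counts of both removes the most that could be shared. AMOTL2 was then at 19.07 and 18.25 CPM per kb in the DMSO libraries, below CCN1. How many of these counts fall inside AMOTL2 is not known, so AMOTL2 and CCN1 could not be ordered. AJUBA followed at 9.47 ± 0.69 CPM per kb. The other 6 lay much lower and closer together, from YAP1 at 1.97 ± 0.021 CPM per kb, LATS2 at 1.65 ± 0.0032 and LATS1 at 1.38 ± 0.018 to TEAD1 at 0.871 ± 0.012. CCN2 at 1.2 ± 0.27 and WWTR1 at 1.12 ± 0.0017 CPM per kb could not be ordered, and the 2 CCN2 libraries also spanned the level of LATS1. CCN1 and CCN2, which encode secreted matrix proteins and are usually read out together as YAP targets, thus had very unequal PRO-seq levels in this line. The part of each gene that was counted is not given in the sources used here, so reads of polymerase paused near the start weigh more in short intervals.

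**Figure D1:**
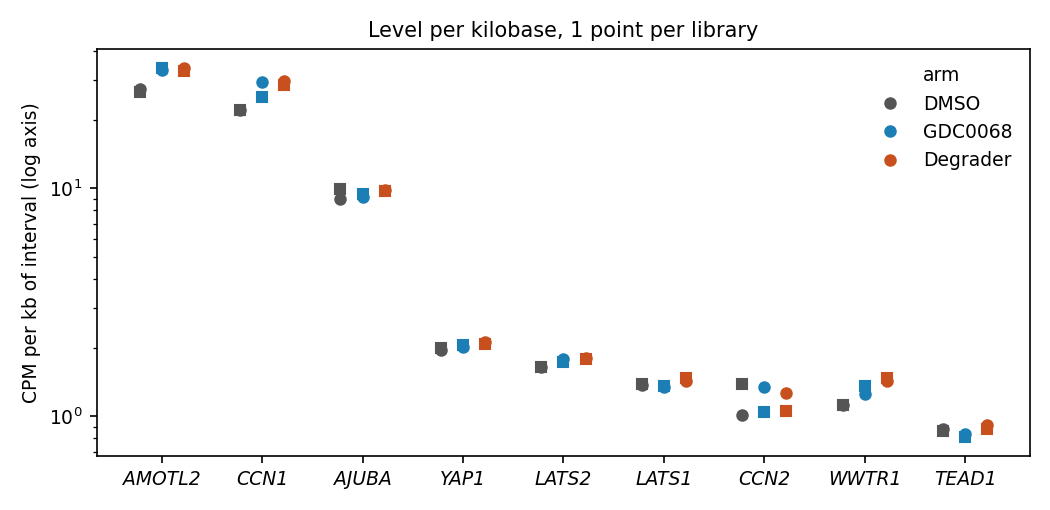
Level of each of the 9 genes per kilobase of its interval (CPM per kb, log axis), with 1 point per library, circles for replicate 1, squares for replicate 2, and colour for the arm. AMOTL2, CCN1 and AJUBA stand above the other 6 genes in all arms. In DMSO the CCN2 libraries overlap those of LATS1 and WWTR1, and under Degrader they lie below both.

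What loss or inhibition of AKT did to these genes within 5 h was asked by comparison of either drug with DMSO. Of the 9 genes, 3 rose with Degrader (CCN1, AMOTL2 and WWTR1), by 0.31 to 0.39 on the log2 scale, and none of the 9 fell. A gene is called when the adjusted p of edgeR's quasi-likelihood test is under 0.05, with Benjamini-Hochberg adjustment over all 19902 intervals, and every adjusted p here is of that kind. Among all intervals, 7.39% were called higher and 7.88% lower under Degrader. Under GDC0068 the genes called were CCN1, AMOTL2 and WWTR1 as well, by 0.22 to 0.31, where 1.70% of all intervals were called higher and 1.88% lower. Both comparisons use the same DMSO libraries. The median log2 fold change over the 9 genes was 0.09 under Degrader and 0.04 under GDC0068, against 0.00 and 0.01 over all intervals. Libraries of Degrader and DMSO did not overlap for 6 of the 9 genes, all higher under Degrader, against 29.3% of all intervals separated in that direction. For GDC0068 they did not overlap for 7 genes, with 5 above DMSO (26.1% of all intervals) and TEAD1 and LATS1 below (24.0%).

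**Figure D2:**
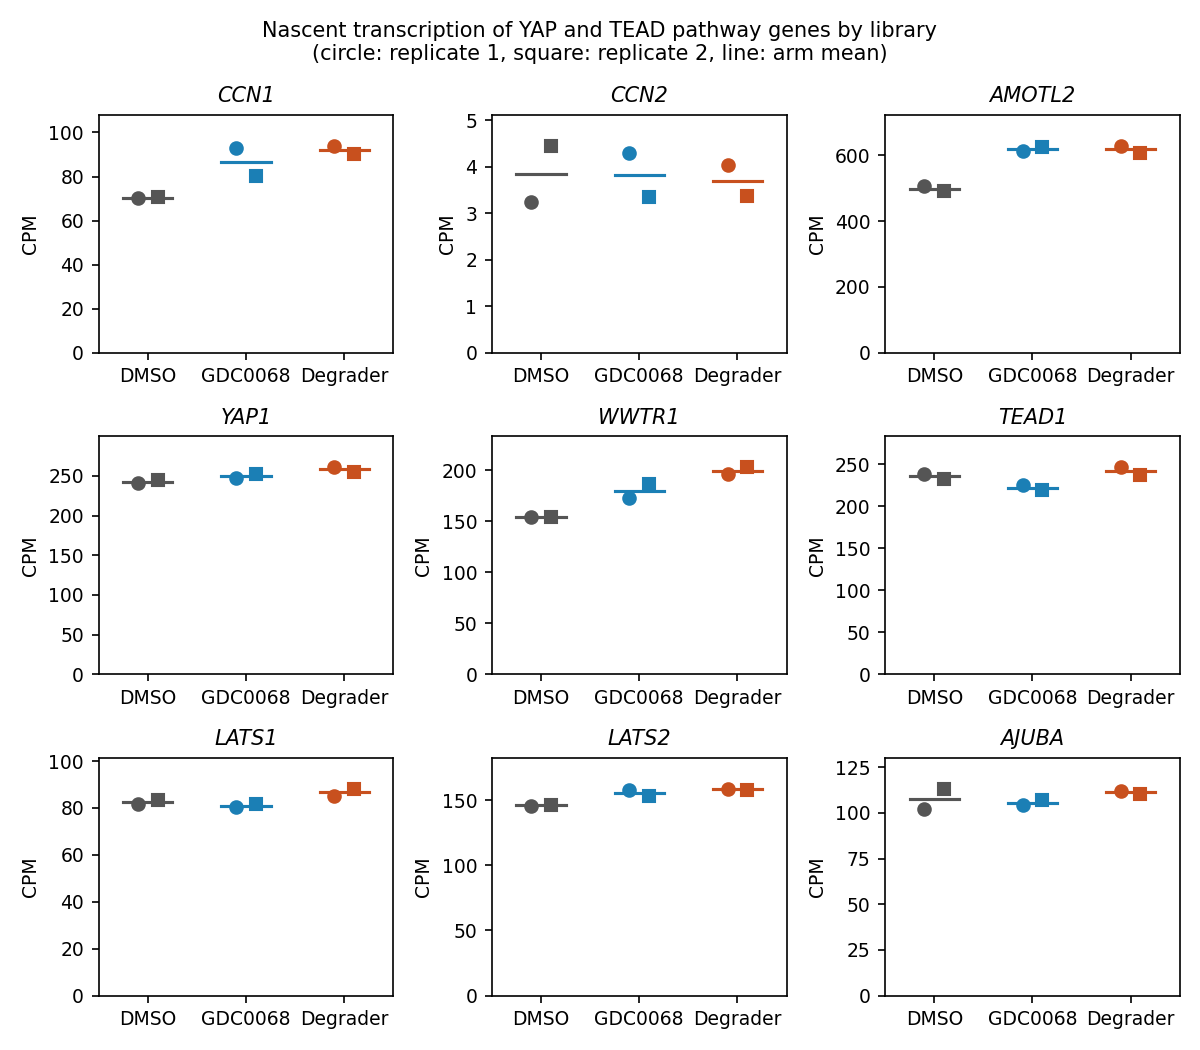
CPM of each of the 9 genes in all 6 libraries, with circles for replicate 1, squares for replicate 2 and a line at the arm mean (each axis starts at 0). For CCN1, AMOTL2 and WWTR1 all 4 drug libraries lie above both DMSO libraries, whereas the CCN2 libraries of the 3 arms overlap.

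Among the targets, CCN1 (ENSG00000142871, chromosome 1, 85580761 to 85583950, plus strand) encodes a secreted matrix protein that is also an immediate-early gene. DMSO libraries gave 70.2 and 70.6 CPM, those of GDC0068 gave 93.0 and 80.4, and those of Degrader gave 93.9 and 90.3. All drug libraries were above both DMSO libraries, with the larger gap between replicates under GDC0068. Degrader raised the log2 level by 0.39 (SE 0.0660, edgeR adjusted p = 0.00306). GDC0068 raised it by 0.30 (SE 0.0663, edgeR adjusted p = 0.0345). Within the experiments, the log2 ratio of GDC0068 to DMSO was 0.41 in replicate 1 and 0.19 in replicate 2, while that of Degrader was 0.42 and 0.36. Without GDC0068 replicate 1 the change under GDC0068 was 0.19 and was not called (edgeR adjusted p = 0.151).

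AMOTL2 (ENSG00000114019, chromosome 3, 134355874 to 134374447, minus strand) encodes an angiomotin family protein that binds YAP at junctions. It gave 505 and 491 CPM in DMSO, 613 and 626 with GDC0068, and 628 and 606 with Degrader. The drug arms overlapped each other and lay above both DMSO libraries. Its log2 fold change was 0.31 under either drug (SE 0.0546 in both, edgeR adjusted p = 0.00371 under Degrader and 0.0138 under GDC0068), a rise of 23.9% and 24.4%. On its own strand the interval holds MIR6827 and, at its end, meets RPL39P5, a ribosomal protein pseudogene. These intervals rose too, MIR6827 by 0.43 and RPL39P5 by 0.38 under Degrader, and by 0.36 and 0.31 under GDC0068. Most of the RPL39P5 interval lies outside AMOTL2, so how many of its counts are shared is not known. The counts of both intervals equal 29.9% to 33.6% of those of AMOTL2. With all of these taken off, a step added after the data were seen, the rise of AMOTL2 was 0.27 for Degrader (edgeR adjusted p = 0.00914) and 0.31 for GDC0068 (edgeR adjusted p = 0.0167).

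CCN2 (ENSG00000118523, chromosome 6, 131948176 to 131951372, minus strand), the closest relative of CCN1 in this set and the classic YAP readout, had few counts over its short interval. It gave 3.24 and 4.45 CPM in DMSO, 4.29 and 3.35 with GDC0068, and 4.04 and 3.36 with Degrader, from 98 to 121 counts per library. The arms overlapped fully. Its log2 fold change was -0.04 under Degrader (SE 0.204, 95% interval -0.49 to 0.40) and -0.01 under GDC0068 (SE 0.204, interval -0.45 to 0.44). At this depth, where counting error alone is up to 10.1% per library, a change of the size seen in CCN1 was not detectable in CCN2: the intervals include it.

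The promoters of these genes were searched for 3 motifs on both strands of the 250 bases before the start. TEAD factors bind GGAATG, which reads CATTCC when the site lies on the other strand. For AP-1 factors, which often share targets with TEAD, the motif searched was TGANTCA, with any base at N. The FOXO motif searched was GTAAACA, which reads TGTTTAC when it lies on the other strand. FOXO factors are kept out of the nucleus by AKT. RefSeq windows (GRCh38.p14) were found for 7 of the 9 genes. CCN1 and TEAD1 had no window, so their promoters were not searched. The RefSeq start equalled the counted start for CCN2, AMOTL2, WWTR1 and AJUBA and lay 3 to 37 bases from it for the other 3. Shown are a target that was not called (chr6:131951373-131951622, minus strand), a target that rose (chr3:134374448-134374697, minus strand), the coactivator that rose (chr3:149658026-149658275, minus strand) and its paralog that was not called (chr11:102110197-102110446, plus strand). Each is written 5′ to 3′ on the gene's strand up to the base before the start, with matches to the TEAD letters in capitals.
CCN2 promoter: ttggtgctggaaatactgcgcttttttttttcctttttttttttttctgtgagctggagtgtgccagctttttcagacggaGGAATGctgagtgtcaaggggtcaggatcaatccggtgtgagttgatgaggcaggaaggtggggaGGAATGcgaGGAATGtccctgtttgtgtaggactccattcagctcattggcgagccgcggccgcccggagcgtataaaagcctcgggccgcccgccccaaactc
AMOTL2 promoter: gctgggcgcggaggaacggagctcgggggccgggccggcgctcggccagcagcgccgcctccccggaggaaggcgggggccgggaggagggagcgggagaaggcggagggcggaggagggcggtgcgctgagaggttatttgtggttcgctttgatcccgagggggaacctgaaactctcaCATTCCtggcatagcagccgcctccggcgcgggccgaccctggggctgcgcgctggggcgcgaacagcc
WWTR1 promoter: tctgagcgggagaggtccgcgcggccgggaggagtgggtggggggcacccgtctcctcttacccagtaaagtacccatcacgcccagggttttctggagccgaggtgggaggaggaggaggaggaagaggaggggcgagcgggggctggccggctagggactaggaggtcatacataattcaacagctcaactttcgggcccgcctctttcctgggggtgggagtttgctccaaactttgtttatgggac
YAP1 promoter: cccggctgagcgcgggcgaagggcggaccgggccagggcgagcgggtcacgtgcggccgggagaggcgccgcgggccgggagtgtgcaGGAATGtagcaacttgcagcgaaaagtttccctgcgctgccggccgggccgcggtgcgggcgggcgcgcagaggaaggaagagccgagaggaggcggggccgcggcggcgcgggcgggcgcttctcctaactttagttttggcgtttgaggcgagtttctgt
CCN2, the lowest of the 3 targets per kilobase, carried the TEAD letters 3 times, beginning 169, 104 and 95 bases before the start. Only 0.0826% of all 35116 RefSeq windows of this length held them 3 or more times. AMOTL2 and YAP1 held them 1 time each, 69 and 162 bases before the start, as did 11.9% of all windows at least 1 time. The WWTR1, LATS1, LATS2 and AJUBA windows at the counted start had no match to the TEAD letters. Of the 7 genes searched, LATS1 had the only match to the AP-1 letters (TGAATCA), which 6.57% of all windows hold. None of them had the FOXO letters at the counted start, which 2.98% of all windows hold. A second RefSeq start of AJUBA, 5709 bases away and inside the counted interval, had GGAATG 59 bases before it. A second RefSeq start of WWTR1, 45248 bases away and outside the counted interval, had GTAAACA 53 bases before it. A match of letters is a description and not a binding site.

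Among the coactivators is WWTR1 (ENSG00000018408, chromosome 3, 149520245 to 149658025, minus strand), which encodes TAZ. Its 3 arms were fully separate and in the order DMSO, GDC0068, Degrader, and it was called under both drugs. Its libraries were at 154 and 154 CPM in DMSO, 173 and 187 under GDC0068, and 196 and 203 under Degrader, so no arm overlapped another. The rise was 0.37 for Degrader (SE 0.0528, edgeR adjusted p = 0.00113) and 0.22 for GDC0068 (SE 0.0529, edgeR adjusted p = 0.0432). The GDC0068 call was lost without the filter on low counts (edgeR adjusted p = 0.0505) and in the fit of the 4 libraries compared (edgeR adjusted p = 0.0729). Without 1 library the change under GDC0068 ranged from 0.16 to 0.28. The arms of YAP1 and LATS2 were also fully separate and in the same order, but neither gene was called under either drug. The share of all intervals with this order was not counted. In pairs, Degrader lay above DMSO without overlap in 29.3% of all intervals, GDC0068 above DMSO in 26.1% and Degrader above GDC0068 in 22.1%. The antisense gene WWTR1-AS1, which starts 155 bases away on the other strand, was at -0.10 under Degrader (edgeR adjusted p = 0.538) and 0.05 under GDC0068 (edgeR adjusted p = 0.822).

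YAP1 (ENSG00000137693, chromosome 11, 102110450 to 102233424, plus strand) moved much less than WWTR1. It gave 241 and 244 CPM in DMSO, 247 and 253 under GDC0068, and 261 and 255 under Degrader. Both drug arms lay just above DMSO with no overlap, but the change was not called, at 0.09 under Degrader (95% interval -0.02 to 0.20, edgeR adjusted p = 0.251) and 0.04 under GDC0068 (-0.06 to 0.15, edgeR adjusted p = 0.673). The Degrader interval of YAP1 thus ends below that of WWTR1 (0.26 to 0.49), though the difference between the genes was not tested. The antisense gene AP001527.2 overlaps the start of YAP1 on the other strand with 439 to 513 counts.

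TEAD1 (ENSG00000187079, chromosome 11, 12674421 to 12944737, plus strand), the DNA-binding partner, stood at 238 and 233 CPM in DMSO, 225 and 219 with GDC0068, and 246 and 238 with Degrader. The GDC0068 libraries were below those of both other arms. The changes against DMSO were small and not called, at -0.08 under GDC0068 (95% interval -0.19 to 0.02, edgeR adjusted p = 0.378) and 0.04 under Degrader (-0.07 to 0.15, edgeR adjusted p = 0.647).

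Neither LATS kinase was called. LATS2 (ENSG00000150457, chromosome 13, 20973036 to 21061549, minus strand) gave 146 and 146 CPM in DMSO, 157 and 153 under GDC0068, and 159 and 158 under Degrader. With Degrader it was at 0.12 (95% interval 0.02 to 0.22, edgeR adjusted p = 0.105), short of the threshold. A fit with the replicate number as a block did call it (edgeR adjusted p = 0.00863). The blocked fit called 4 of the 9 genes under Degrader, where it called 15.1% of all intervals higher. LATS1 (ENSG00000131023, chromosome 6, 149658153 to 149718082, minus strand) lay between 80.4 and 88.2 CPM in all libraries and was not called, at 0.07 under Degrader and -0.03 under GDC0068 (edgeR adjusted p = 0.378 and 0.803). The adaptor AJUBA (ENSG00000129474, chromosome 14, 22971177 to 22982551, minus strand) lay between 102 and 113 CPM, and the 2 DMSO libraries spanned that whole range. It was at 0.05 under Degrader and -0.03 under GDC0068 (edgeR adjusted p = 0.632 and 0.841).

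**Figure D3:**
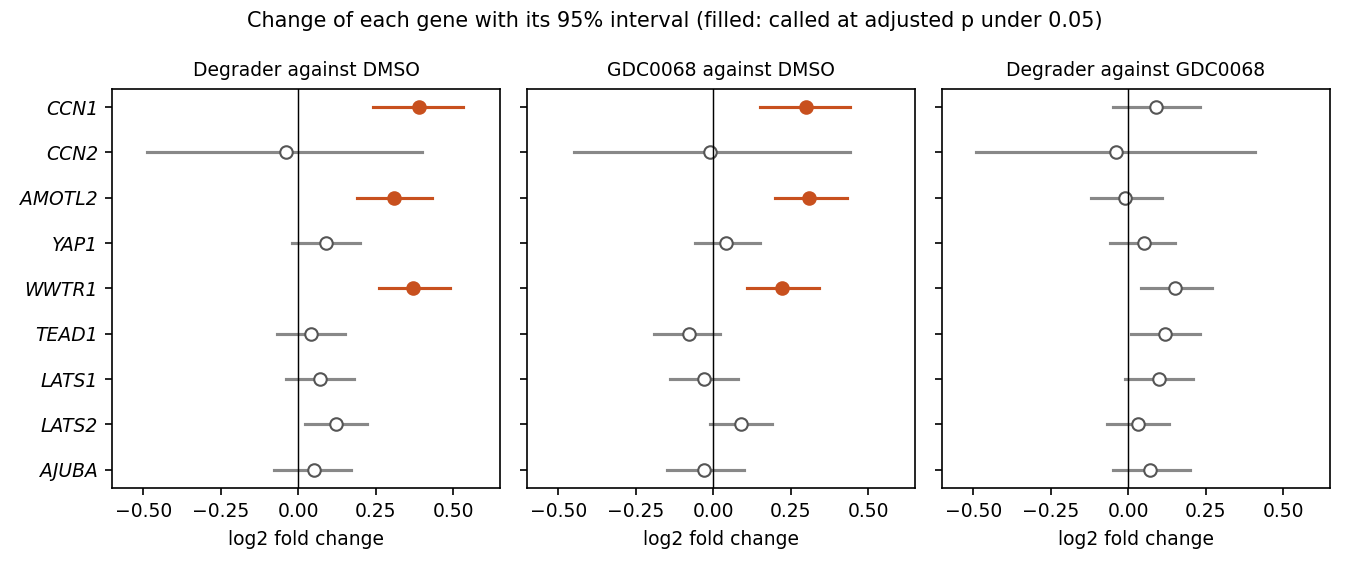
Log2 fold change of each of the 9 genes (points) with its 95% interval (lines) in the 3 comparisons, filled where called at an adjusted p under 0.05. CCN1, AMOTL2 and WWTR1 are filled against DMSO under both drugs, and no gene is filled between the drugs, where WWTR1 has the highest value, 0.15.

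Whether loss of the AKT proteins and block of their activity differ for these genes was read from the direct comparison of Degrader with GDC0068. None of the 9 genes was called by edgeR, where 0.266% of all intervals were. WWTR1 and TEAD1 had an unadjusted p under 0.05, as did 14.1% of all intervals. DESeq2 called 0 of the 9 as well. AMOTL2 was at -0.01 (95% interval -0.12 to 0.11) and CCN1 at 0.09 (-0.05 to 0.23), so a difference in either direction above these bounds falls outside their intervals. WWTR1 was higher under Degrader by 0.15 (SE 0.0526, interval 0.04 to 0.27, edgeR adjusted p = 0.233) and TEAD1 by 0.12 (SE 0.0501, interval 0.01 to 0.23, edgeR adjusted p = 0.294). Each Degrader library exceeded each GDC0068 library for 6 of the 9 genes (WWTR1, TEAD1, YAP1, LATS1, LATS2 and AJUBA), and for 22.1% of all intervals. The other 3 genes overlapped, and none lay lower under Degrader in all libraries. With the replicate block these 2 genes were called (edgeR adjusted p = 0.00596 for WWTR1 and 0.0200 for TEAD1), in a fit that called 5.03% of all intervals higher. The log2 ratios within the experiments were 0.19 and 0.12 for WWTR1, and 0.13 and 0.12 for TEAD1.

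The rest of the pathway was read through 4 lists written from general knowledge. The list of YAP/TAZ-TEAD targets had 17 tested genes, 13 of them outside the 9. Of these 13, 3 rose under Degrader (7.39% of all intervals) and 1 fell (7.88%), and 2 rose under GDC0068 (1.70%). CRIM1, a transmembrane protein that binds bone morphogenetic proteins, rose from 535 and 553 CPM in DMSO to 635 and 658 under GDC0068 and 729 and 732 under Degrader. Its log2 fold change was 0.25 under GDC0068 (edgeR adjusted p = 0.0337) and 0.43 under Degrader (edgeR adjusted p = 7.10e-04). PTPN14, a phosphatase that binds and restrains YAP, gave 495 and 510 CPM in DMSO, 574 and 599 under GDC0068, and 666 and 667 under Degrader. It rose by 0.22 (edgeR adjusted p = 0.0487) and 0.41 (edgeR adjusted p = 8.93e-04). In both genes, as in WWTR1, no arm overlapped another, and the GDC0068 libraries lay between those of DMSO and Degrader. The same order held for MYOF, at 906 and 964 CPM under GDC0068, and for the junction adaptor PATJ, at 770 and 887. How many of all intervals have this order was not counted. Between the drugs, CRIM1 and PTPN14 each differed by 0.18, not called (edgeR adjusted p = 0.188 for CRIM1 and 0.169 for PTPN14). Both were called with the block (edgeR adjusted p = 0.00174 and 0.00110). The GDC0068 calls of CRIM1 and PTPN14 were lost without any 1 of the 6 libraries.

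MYOF, a membrane repair protein, went from 849 and 840 CPM in DMSO to 1031 and 1039 under Degrader. This was a rise of 0.29 (edgeR adjusted p = 0.00699). Under GDC0068 it was at 0.15, called only with the block (edgeR adjusted p = 0.188 without and 0.00631 with it). GADD45A, a growth arrest and DNA damage gene, fell by 0.35 under Degrader, from 14.9 and 14.0 CPM to 11.4 and 11.4 (edgeR adjusted p = 0.0357). DESeq2 did not call it (adjusted p = 0.0802). The median of the target list was 0.09 under Degrader and 0.06 under GDC0068, with 11 and 13 of the 17 not called.

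**Figure D4:**
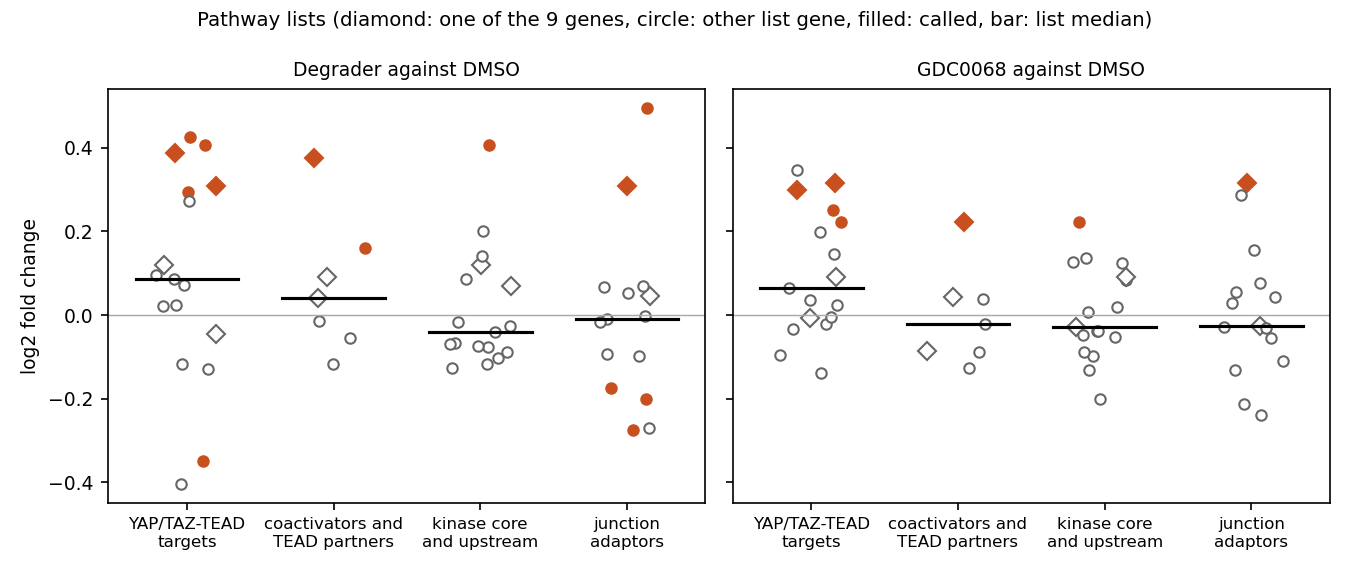
Log2 fold change of the tested genes of the 4 pathway lists against DMSO under Degrader (left) and GDC0068 (right), with diamonds for the 9 genes, circles for other list genes, filled marks where called and a bar at the list median. The medians lie between -0.04 and 0.09, and the called target genes, GADD45A apart, lie above 0.

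Of the coactivator and TEAD partner list, 4 tested genes are outside the 9, and 1 of them rose under Degrader (7.39% of all intervals). VGLL4, which competes with YAP for TEAD, rose by 0.16 under Degrader (edgeR adjusted p = 0.0482). The change was 0.16 under all 7 other settings, but the call was lost with DESeq2's size factors, with total counts and with no filter (edgeR adjusted p = 0.0514, 0.0508 and 0.0533), and by DESeq2 (adjusted p = 0.0951). The paralogs TEAD2, TEAD3 and TEAD4 were not called under either drug, with values from -0.13 to -0.01. The kinase-core and upstream list had 15 tested genes outside the 9. PTPN14, already counted above among the targets, was the 1 gene called of these 15. It was called higher under both drugs, as were 7.39% of all intervals under Degrader and 1.70% under GDC0068. The other 14 genes were not called. Their kinases STK3 and STK4 were at -0.03 and -0.04 under Degrader.

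The called junction adaptors went in both directions. Of 13 tested genes outside the 9, 1 rose and 3 fell under Degrader, and 9 were not called. AMOTL1, of the same family as AMOTL2, was among those not called. Its values were -0.27 under Degrader (edgeR adjusted p = 0.0857) and -0.24 under GDC0068 (edgeR adjusted p = 0.197), against the direction of AMOTL2. Among all intervals, 7.39% were called higher and 7.88% lower under Degrader. None of the 13 was called by edgeR under GDC0068, where 3 had an edgeR unadjusted p under 0.05 (20.0% of all intervals). DESeq2 called PATJ under GDC0068 (adjusted p = 0.0227). LIMD1 narrowly missed the threshold under GDC0068, at -0.21 (edgeR adjusted p = 0.0539), but was called with DESeq2's size factors (edgeR adjusted p = 0.0498) and with robust estimation (edgeR adjusted p = 0.0388). PATJ, a scaffold of the Crumbs polarity complex, rose by 0.50 under Degrader (edgeR adjusted p = 0.00275), from 641 and 717 CPM to 909 and 1006. The LIM proteins nearest to AJUBA both fell: LIMD1 by 0.27 (edgeR adjusted p = 0.00665) and WTIP by 0.17 (edgeR adjusted p = 0.0361), while AJUBA was at 0.05. LIMD1 gave 112 and 116 CPM in DMSO, 96.1 and 100.0 under GDC0068, and 97.7 and 90.2 under Degrader. SCRIB, a basolateral polarity protein, fell by 0.20 (edgeR adjusted p = 0.0435). DESeq2 did not call WTIP (adjusted p = 0.101). Outside the 9, the other settings were read only for list genes called under Degrader. Of these junction adaptors, the block called PATJ, LIMD1 and SCRIB under GDC0068 too, at 0.29, -0.21 and -0.13 (edgeR adjusted p = 1.92e-06, 5.81e-04 and 0.00989). That fit called 17.8% of all intervals. Of the 9 list genes called under Degrader, CRIM1, PTPN14 and PATJ were called without any 1 library, LIMD1 in 5 of 6 such fits, MYOF, GADD45A, WTIP and SCRIB in 2, and VGLL4 in 1. Leaving out either DMSO library or either Degrader library ended the calls of MYOF, GADD45A, WTIP, SCRIB and VGLL4, and Degrader replicate 2 that of LIMD1.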

How the data were processed

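Groups and replicate numbers came from the sample labels, and columns were matched to samples through their descriptions. The values are raw counts per gene interval as deposited by the authors. Per the submitters' processing notes, cutadapt 1.14, Bowtie 1.2.2, SAMtools 1.3.1, HISAT2 2.2.1 and limma were used, with the builds dm3, hg38 and GRCh38, and no role is given. The counting tool, use of strand, duplicate removal and any spike-in scaling are not given in the sources used here, so changes are relative to the bulk of genes, antisense reads could enter a count, and errors from counting cover counting only. The 9 genes, the lists and the motifs were chosen with earlier results of these data known.

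In R 4.3.3, edgeR 4.0.16 was run on the counts with filterByExpr (minimum count 10, minimum total 15), TMM scaling and 1 quasi-likelihood fit of all 6 libraries with a term per arm (3 residual degrees of freedom, tested on simulated data first). SE is the log2 fold change divided by the square root of F, and intervals are 95% from the t distribution of the fit. With 2 libraries per arm, an exact permutation test cannot go below 0.33. Besides the 9 genes, up to 5 called genes with the smallest adjusted p were named from each list. CPM uses TMM-scaled library sizes. Starts count from 1. DESeq2 1.42.0 was an alternative, as were other scalings, no filter, the 4 libraries compared, robust estimation, the replicate block and leaving out each library. The labels number the replicates, and the series describes 2 independent experiments: deviations from arm means of libraries with the same number correlated across genes at 0.177, 0.220 and 0.204 for the 3 pairs of arms.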

Additional observations from a re-analysis of the deposited data

How the results depend on the processing

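The rises of CCN1, AMOTL2 and WWTR1 under Degrader were called under all 7 other settings and without any 1 library (log2 0.36 to 0.41, 0.28 to 0.33 and 0.34 to 0.40). Under GDC0068 these 3 calls were less stable: leaving out 1 library left 0 to 2 of them, with 0 called without either DMSO library, and the log2 changes ranged from 0.19 to 0.39, 0.29 to 0.33 and 0.16 to 0.28. With the replicate block, 6114 intervals were called for Degrader, 3540 for GDC0068 and 2065 in the direct comparison, including 2 of the 9 genes. Beside the calls named above, the block changed no other call among the 9 genes. Among the list genes called under Degrader it also called MYOF, GADD45A, VGLL4, PATJ and WTIP between the drugs. Other list genes were not read under the block. Between the drugs, DESeq2 called 141 intervals, robust estimation 116 and the 4 libraries compared 23. Leaving out 1 library gave 931 to 3217 intervals for Degrader, 37 to 546 for GDC0068 and 5 to 63 for the direct comparison. Signs near 0 changed without 1 library. CCN2 ranged from -0.27 to 0.19 for Degrader, -0.23 to 0.23 for GDC0068 and -0.20 to 0.14 in the direct comparison. AJUBA ranged from -0.03 to 0.12 and -0.10 to 0.05 against DMSO, and between the drugs CCN1 from -0.01 to 0.20, AMOTL2 from -0.03 to 0.02 and SCRIB from -0.13 to 0.00. GADD45A under GDC0068 ranged from -0.10 to 0.02. The cause of these shifts was not tested, and a lone library is assumed to vary like the other arms.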

Other observations

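Among 13896 other intervals with a mean of at least 10 CPM, the patterns most like that of CCN1 over the 6 libraries, by Pearson's r of log2 CPM, were those of ATG14 (0.999), MXD4 (0.998) and TRIM69 (0.995). ATG14, an autophagy gene, was at 0.36 under Degrader and 0.28 under GDC0068, and MXD4, a partner of MAX, at 0.31 and 0.24. For CCN2 the most like were CNBP (0.995), HTATSF1 (0.991) and PSMC6 (0.987), none called in any of the 3 comparisons by edgeR. With 6 libraries that share arms, experiments and depth, such values are high by selection and are a description only.

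Other targets of the list were near the threshold. F3, the tissue factor gene, was at -0.40 under Degrader (edgeR adjusted p = 0.0687) and -0.02 under GDC0068, and CCDC80 at 0.27 and 0.20 (edgeR adjusted p = 0.0602 and 0.245). FJX1 had the highest GDC0068 value of the list at 0.35 (edgeR adjusted p = 0.0713), with no overlap with DMSO, but 0.10 under Degrader (edgeR adjusted p = 0.562). Its direct difference, Degrader against GDC0068, was -0.25 (edgeR adjusted p = 0.275). These 3 genes were picked after their values were seen. RefSeq promoter windows were found for 11 of the 17 tested targets, but not for the called genes CCN1, CRIM1 and GADD45A. Of the 11, 6 held the TEAD letters, as did 11.9% of all windows, and the list itself was of known TEAD targets. Some windows were not at the counted start. Those of PTPN14 and AXL, which held the letters, lay 145 and 399 bases from it, and that of FJX1, which did not, 763. Of the 3 called ones among the 11, AMOTL2 and PTPN14 held them and MYOF did not, while CCN2 and NUAK2 held them 3 and 2 times and were not called.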
